A study of Homo sapiens with 9 samples.

Results

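The genes described here are 44 named targets of the hypoxia-inducible factors (HIF) and genes of glycolysis, the conversion of glucose to pyruvate and lactate. They were taken from a list of symbols and matched to the Ensembl gene IDs of the count tables. All 44 were found among 78899 IDs listed, all had counts, and all passed the filter on low counts, which kept 16921 genes. They are of 2 kinds. The products of 23 HIF targets work outside glycolysis, and 20 genes belong to glycolysis itself, namely 15 enzymes, 3 transporters of glucose or lactate and 2 regulators of phosphofructokinase. HIF1A, an oxygen-controlled HIF subunit, was kept apart from both.

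RNA came from HaCaT cells, an established immortalized line of human keratinocytes, in 9 libraries. BD and NBD are subpopulations of these cells sorted by fluorescence, with 3 libraries each; the labels do not spell out either name or the gate. Control is the cell line, with 3 libraries. All groups share 1 growth protocol, high-glucose medium with low-calcium serum. No label names a hypoxic treatment, an oxygen level, a cell density or any drug. The comparison is thus between sorted and cell-line libraries of 1 line. Whether oxygen or cell density differed among them is not known. The libraries held 17128797 to 29512856 counts. Whether replicates were grown separately is not stated, so each p-value reflects only how these libraries vary, which may be technical.

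HIF is a pair of an alpha subunit, such as HIF1A, and the partner ARNT. With oxygen at hand, the EGLN prolyl hydroxylases mark the alpha subunit, the VHL complex binds the mark, and the subunit is degraded. When oxygen is short the subunit persists and, with ARNT, binds DNA at a core of ACGTG or GCGTG in its target genes. The control is thus largely of the protein, which was not measured. Among the targets are genes that raise glucose uptake, lactate formation and acid export, and genes that spare mitochondria or signal to blood vessels. The 2 kinds overlap in biology, since several isozymes of glycolysis, such as HK2 and LDHA, are themselves well-known HIF targets. Most enzymes of the pathway are made in every cell.

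The proximal promoters of 6 members are shown because they hold the core to which HIF binds, in genes that did and genes that did not differ among the libraries. Each is the 250 bases before the RefSeq start of the gene in GRCh38.p14, written in the gene's direction, with ACGTG or GCGTG on either strand in capitals; CACGT and CACGC are the same letters read on the other strand, and CACGTG counts on both. In the first 4 genes control replicates 1 and 2 lay above each of the other 7 libraries, and in LOX and ANKRD37 they did not.
BNIP3 (chr10:131981924-131982173, minus strand): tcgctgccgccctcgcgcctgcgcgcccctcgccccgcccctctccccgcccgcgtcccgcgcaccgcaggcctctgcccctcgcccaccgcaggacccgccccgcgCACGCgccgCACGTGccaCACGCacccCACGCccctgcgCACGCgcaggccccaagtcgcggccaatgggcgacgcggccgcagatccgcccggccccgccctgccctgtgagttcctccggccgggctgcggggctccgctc
PPP1R3C (chr10:91633072-91633321, minus strand): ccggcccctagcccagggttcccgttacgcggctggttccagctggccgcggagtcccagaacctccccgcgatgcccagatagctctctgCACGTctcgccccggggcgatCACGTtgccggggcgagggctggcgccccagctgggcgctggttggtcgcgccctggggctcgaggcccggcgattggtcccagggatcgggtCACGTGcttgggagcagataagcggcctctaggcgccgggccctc
LDHA (chr11:18394313-18394562, plus strand): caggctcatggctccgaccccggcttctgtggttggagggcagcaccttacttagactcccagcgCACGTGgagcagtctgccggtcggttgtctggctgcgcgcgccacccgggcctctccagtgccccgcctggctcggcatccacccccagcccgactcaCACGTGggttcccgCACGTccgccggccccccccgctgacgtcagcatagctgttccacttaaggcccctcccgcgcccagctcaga
CA9 (chr9:35673678-35673927, plus strand): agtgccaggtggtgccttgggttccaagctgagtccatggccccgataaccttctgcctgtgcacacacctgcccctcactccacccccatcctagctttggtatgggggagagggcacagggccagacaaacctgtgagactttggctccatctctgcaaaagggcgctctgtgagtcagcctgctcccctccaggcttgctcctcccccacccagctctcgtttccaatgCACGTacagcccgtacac
LOX (chr5:122078260-122078509, minus strand): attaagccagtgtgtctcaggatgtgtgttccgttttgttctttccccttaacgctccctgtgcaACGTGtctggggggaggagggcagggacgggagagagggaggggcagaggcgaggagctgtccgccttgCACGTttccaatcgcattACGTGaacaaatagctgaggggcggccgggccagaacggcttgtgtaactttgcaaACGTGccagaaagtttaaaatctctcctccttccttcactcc
ANKRD37 (chr4:185396591-185396840, plus strand): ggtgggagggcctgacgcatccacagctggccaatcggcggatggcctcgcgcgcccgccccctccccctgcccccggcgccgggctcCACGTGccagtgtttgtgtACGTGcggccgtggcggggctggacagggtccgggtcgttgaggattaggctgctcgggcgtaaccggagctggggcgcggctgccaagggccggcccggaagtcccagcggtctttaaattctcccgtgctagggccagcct

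BNIP3 held 6 matches within 143 bases of the start, LDHA 5, PPP1R3C and LOX 4 each, ANKRD37 3, and CA9 1 that begins 18 bases before the start. The RefSeq table held a promoter for 40 of the 44 members, and BNIP3L, NDRG1, VEGFA and SLC2A3 are named only. ACGTG stood in 13 of 20 promoters of HIF targets (65.0%), in 8 of 19 of glycolysis genes (42.1%), all of them enzymes, and in 20.8% of the 15842 promoters of protein-coding genes in the table. Either motif stood in 16 of 20 (80.0%), 12 of 19 (63.2%) and 50.5%. Control replicates 1 and 2 lay above all other libraries for 8 of the 13 HIF targets with ACGTG and for 6 of the 7 without it (all genes tested 18.9%). The share of all genes was not split by motif, so a link between motif and level was not tested. A match is a description of the letters in this window and not a site at which binding was measured.

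The control libraries were unlike each other over the whole transcriptome. Control replicates 1 and 2 both lay above each of the other 7 libraries for 18.9% of all genes tested and both below for 21.6%, and control replicate 3 was close to the sorted libraries. Mitochondrial rRNA took 22.3%, 17.3% and 21.1% of counts in BD, 27.3%, 26.8% and 28.9% in NBD, and 12.3%, 11.9% and 20.7% in control, so it moves with the split among controls and with BD against NBD, and its part in the results was not tested. Results against control are therefore given with all 9 libraries, without control replicate 3, and with control replicate 3 as the only control. Levels are normalised CPM, in which each library's total is scaled by TMM. The test was edgeR's quasi-likelihood test, p was adjusted by Benjamini-Hochberg over every gene in the fit, and a gene with an adjusted p under 0.05 was called. Summed levels of 10 keratinocyte markers, all detected, were 3289 to 4064 CPM in BD, 2749 to 3819 CPM in NBD, and 4634, 5090.0 and 3451 CPM in control. Other cell types had low sums. Leukocyte markers, 6 of 7 detected and TYROBP at 0, summed to 4.72 to 7.13 CPM in BD and 3.96 to 6.96 CPM in NBD. In control they summed to 1.12, 0.673 and 6.74 CPM, and CD14 made up most of each sum. Endothelial markers, 4 of 5 detected and TIE1 at 0, summed to 11.9 to 18.9 CPM in BD, 6.74 to 16.3 CPM in NBD, and 2.61, 1.85 and 16.8 CPM in control. CDH5 made up most of the sum in BD, NBD and control replicate 3. In control replicates 1 and 2 VWF, at 30 and 19 reads, exceeded CDH5, at 21 and 14. Fibroblast markers, 7 of 7 detected, were at 0.766 to 5.24 CPM in all libraries and lowest in control replicates 1 and 2, and melanocyte markers, 6 of 6, at 2.85 to 5.63 CPM. Their part in the results was not tested. In bulk RNA, fewer cells that make a transcript and less of it per cell cannot be told apart.

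Most HIF targets outside glycolysis, but not all, were higher in 2 control libraries than in the other 7. Control replicates 1 and 2 both lay above each of the other libraries for 16 of 23 targets, and both below for 3, ADM, VEGFA and EGLN1. Summed over the 23, levels were 751, 1002 and 964 CPM in BD, 683, 896 and 887 CPM in NBD, and 1461, 1383 and 888 CPM in control. This order of the libraries was noticed in the data, and the percentages for all genes above are its background. Of 44 members, control replicate 3 lay within the range of the 6 sorted libraries for 38, above it for CA9, VEGFA, PPP1R3C and PFKFB4, and below it for PDK1 and SLC2A3. The place of control replicate 3 was not counted over all genes, so these counts have no background.

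**Figure D1:**
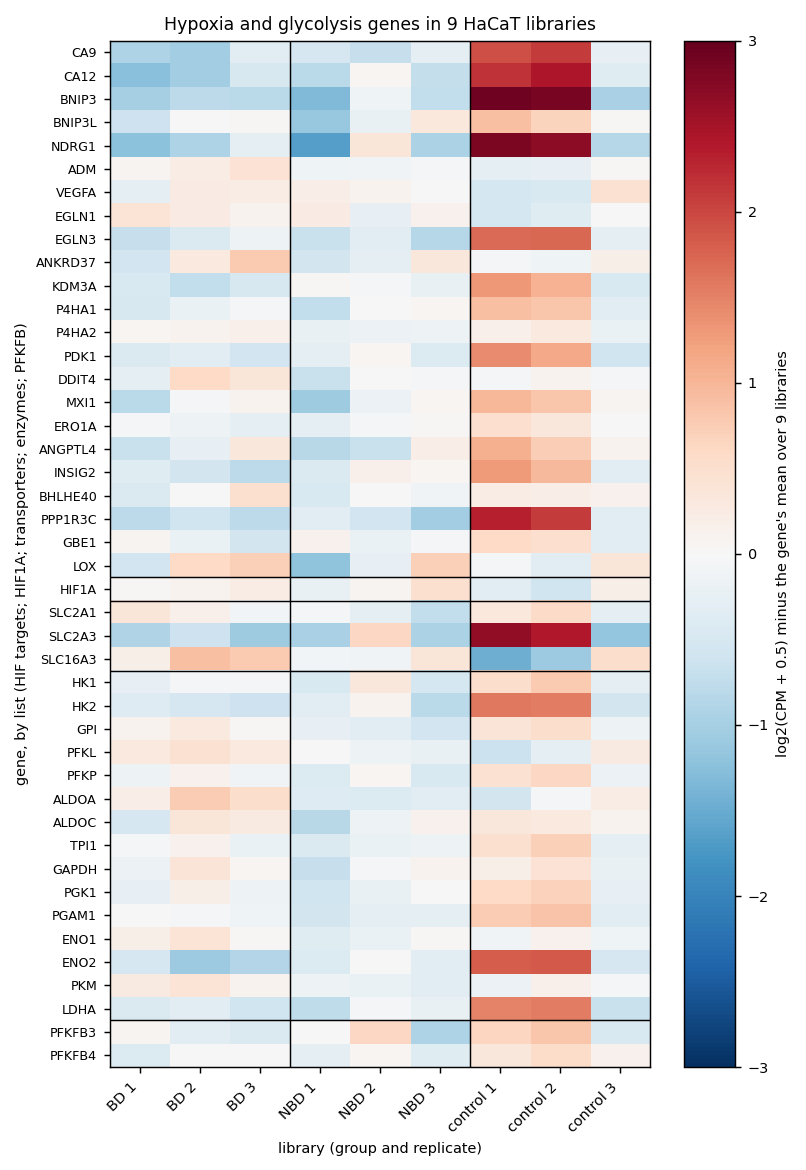
Levels of all 44 members in the 9 libraries, as log2(CPM + 0.5) minus the gene's mean over the libraries (colour, red above and blue below the mean, from -3 to 3). Rows are genes by list and columns are libraries, BD, NBD and then control. The 2 red columns are control replicates 1 and 2. They lay above the other 7 libraries for 28 members (all genes 18.9%) and below them for 6 (all genes 21.6%).

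Among genes of acid and base balance, CA9 and CA12 encode membrane carbonic anhydrases that hydrate carbon dioxide outside the cell. CA9 stood at 0.5905, 0.5104 and 1.17 CPM in BD, 0.963, 0.786 and 1.22 CPM in NBD, and 7.46, 8.41 and 1.24 CPM in control. CA12 was rarer, at 0.0347, 0.118 and 0.414 CPM in BD, 0.222, 0.827 and 0.275 CPM in NBD, and 5.26, 6.34 and 0.4896 CPM in control, and its BD values rest on 1, 3 and 12 reads. For both genes control replicates 1 and 2 were high, and the highest of the other 7 libraries lay 6.002 and 6.36 times under the lower of the pair. CA9 was called lower without control replicate 3, at a log2 fold change of -3.36 ± 0.40 in BD and -2.98 ± 0.40 in NBD, and CA12 at -4.88 ± 0.73 and -3.70 ± 0.68. Log2 fold changes are from edgeR, ± SE, sorted over control, with BD before NBD. With all 9 libraries the same fold changes were -2.90 ± 0.66 and -2.52 ± 0.65 for CA9 and -4.36 ± 1.04 and -3.18 ± 0.97 for CA12. None of them was called with the filter on low counts and all were called by edgeR without it. CA12 passed that filter only with control libraries, so its values with all 9 libraries are a description.

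Receptors of mitophagy, the removal of mitochondria, are encoded by BNIP3 and BNIP3L. BNIP3 (chromosome 10, 131966455 to 131982013 in GENCODE 29) stood at 5.87, 6.91 and 6.72 CPM in BD, 4.56, 11.05 and 7.12 CPM in NBD, and 95.4, 91.3 and 5.99 CPM in control. The gap between the 2 high libraries and the rest was the widest among members with at least 1 CPM in every library, 8.27-fold. The related BNIP3L stood at 31.2, 48.6 and 49.1 CPM in BD, 21.5, 41.2 and 59.5 CPM in NBD, and 90.6, 76.3 and 49.3 CPM in control, with a gap of 1.28-fold and a wide spread among the sorted libraries. BNIP3 was called lower without control replicate 3, at -3.83 ± 0.30 for BD and -3.61 ± 0.30 for NBD (edgeR, adjusted p = 3.31e-05 and 4.86e-05, up to 1.00 over the alternatives), while BNIP3L, at -0.95 ± 0.35 and -1.02 ± 0.35, was not. BNIP3 has 39 named pseudogenes, so its count is uncertain.

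NDRG1, a stress-responsive protein of differentiating epithelia and a common readout of hypoxia, stood at 10.6, 13.1 and 21.1 CPM in BD, 7.78, 32.9 and 12.9 CPM in NBD, and 183, 164 and 13.7 CPM in control. Again 2 control libraries were far above the rest, and NBD replicate 2 was the highest of the other 7. Its log2 fold change without control replicate 3 was -3.53 ± 0.49 in BD and -3.27 ± 0.49 in NBD, against -3.01 ± 0.82 and -2.75 ± 0.81 with all libraries.

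The oxygen sensors differed in direction. EGLN3, a sensor that HIF itself strongly induces, stood at 1.29, 1.65 and 2.102 CPM in BD, 1.33, 1.78 and 1.101 CPM in NBD, and 8.94, 9.03 and 1.92 CPM in control. EGLN1, the main sensor in most cells, stood at 21.3, 18.8 and 17.2 CPM in BD, 19.1, 13.2 and 17.3 CPM in NBD, and 10.8, 12.2 and 16.1 CPM in control. EGLN3 was thus highest in control replicates 1 and 2, whereas EGLN1 was lowest there. With control replicate 3 left out, EGLN3 was called lower at -2.41 ± 0.32 in BD and -2.66 ± 0.33 in NBD, and EGLN1 was called higher in BD at 0.74 ± 0.22 and not in NBD at 0.55 ± 0.22. The difference between the genes was not tested. HIF1A itself stood at 356, 371 and 403 CPM in BD, 297, 365 and 485 CPM in NBD, and 278, 229 and 390.4 CPM in control, and its transcript was lowest in the 2 control libraries in which most targets were highest; no fold change of HIF1A was called, at 0.58 ± 0.24 and 0.61 ± 0.24 without control replicate 3. HIF1A shares exon sequence with a same-strand and an antisense gene, so its count is uncertain.

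Chromatin and collagen enzymes that need oxygen are also targets. KDM3A, a histone demethylase, stood at 24.8, 20.3 and 24.6 CPM in BD, 35.3, 33.5 and 29.4 CPM in NBD, and 85.5, 71.7 and 24.9 CPM in control. P4HA1, the catalytic subunit of collagen prolyl 4-hydroxylase, stood at 38.6, 47.2 and 51.4 CPM in BD, 31.97, 53.4 and 56.5 CPM in NBD, and 102, 95.7 and 43.3 CPM in control, and its paralog P4HA2 at 43.7, 45.3 and 46.7 CPM in BD, 36.3, 37.4 and 37.8 CPM in NBD, and 47.3, 51.8 and 36.5 CPM in control. KDM3A and P4HA1 followed the split among controls, and P4HA2 did so by a gap of only 1.01-fold. In the fit without control replicate 3, KDM3A was called lower at -1.75 ± 0.18 and -1.25 ± 0.18 and P4HA1 at -1.10 ± 0.24 and -1.04 ± 0.24, in BD and in NBD. P4HA2 was not called, at -0.12 ± 0.16 and -0.40 ± 0.16. LOX, which cross-links collagen, ranged from 1.67 to 7.75 CPM over all 9 libraries with overlapping groups.

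PDK1, the kinase that shuts pyruvate dehydrogenase and so keeps pyruvate out of mitochondria, stood at 19.2, 20.8 and 17.3 CPM in BD, 21.2, 27.4 and 19.6 CPM in NBD, and 70.6, 58.2 and 17.1 CPM in control. All 7 libraries outside control replicates 1 and 2 were at or under 27.4 CPM. Its log2 fold change without control replicate 3 was -1.74 ± 0.20 in BD and -1.49 ± 0.19 in NBD, both called by edgeR.

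Glycogen genes followed the same libraries. PPP1R3C, which brings protein phosphatase 1 to glycogen and favours its synthesis, stood at 0.139, 0.236 and 0.138 CPM in BD, 0.3704, 0.248 and 0.0393 CPM in NBD, and 5.11, 4.26 and 0.377 CPM in control, with at most 10 reads in any library but control replicates 1 and 2, which had 100 and 76. Control replicates 1 and 2 stood at least 11.3-fold above the rest. PPP1R3C passed the filter on low counts through control libraries alone, so a gene with its levels had to differ to be tested at all, and its values are a description. GBE1, the branching enzyme, stood at 22.3, 18.3 and 14.3 CPM in BD, 23.004, 18.2 and 20.5 CPM in NBD, and 32.3, 29.9 and 16.9 CPM in control, a far smaller difference. PPP1R3C was called lower without control replicate 3, at -4.74 ± 0.60 in BD and -4.36 ± 0.59 in NBD, and GBE1 was called lower in BD at -0.75 ± 0.21 and not in NBD at -0.58 ± 0.21.

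Among secreted products VEGFA and ADM were low, and ANGPTL4 high, in control replicates 1 and 2. VEGFA, the main growth factor for blood vessels, stood at 75.96, 107 and 107 CPM in BD, 104, 98.05 and 91.2 CPM in NBD, and 63.5, 66.2 and 126 CPM in control. ADM, the vasodilator peptide adrenomedullin, stood at 28.6, 31.2 and 36.2 CPM in BD, 24.5, 24.9 and 26.2 CPM in NBD, and 22.2, 22.3 and 27.3 CPM in control. VEGFA and ADM were both lowest in the 2 libraries in which CA9, BNIP3 and NDRG1 were highest. ANGPTL4, a secreted inhibitor of lipoprotein lipase, stood at 1.95, 2.79 and 4.48 CPM in BD, 1.704, 1.94 and 3.97 CPM in NBD, and 7.71, 5.999 and 3.69 CPM in control, with the 2 control libraries on top. VEGFA was called higher in BD without control replicate 3, at 0.59 ± 0.20, and not in NBD at 0.61 ± 0.20 (edgeR, adjusted p = 0.0495 and 0.0524, up to 1.00 over the alternatives). ANGPTL4 was called lower in NBD at -1.41 ± 0.44 and not in BD at -1.15 ± 0.43.

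Of the remaining targets, INSIG2, which holds back sterol synthesis, stood at 11.05, 9.58 and 8.099 CPM in BD, 10.4, 16.01 and 14.9 CPM in NBD, and 35.4, 28.5 and 11.1 CPM in control. MXI1, a MYC antagonist, stood at 13.998, 24.1 and 26.9 CPM in BD, 11.5, 21.97 and 25.7 CPM in NBD, and 50.2, 44.5 and 26.3 CPM in control, with BD replicate 1 and NBD replicate 1 below the rest. Both were called lower without control replicate 3, INSIG2 at -1.73 ± 0.23 and -1.19 ± 0.23 and MXI1 at -1.12 ± 0.33 and -1.24 ± 0.33, for BD and for NBD. ERO1A, an oxidase of protein folding in the endoplasmic reticulum, ranged only from 134 to 235 CPM and was called lower in BD without control replicate 3. DDIT4, an inhibitor of mTORC1, ranged from 158 to 385 CPM, BHLHE40, a circadian repressor, from 31.3 to 59.8 CPM, and ANKRD37 from 1.42 to 4.41 CPM. For these 3 and LOX, control replicates 1 and 2 lay within the range of the other libraries, and no fit called them.

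**Figure D2:**
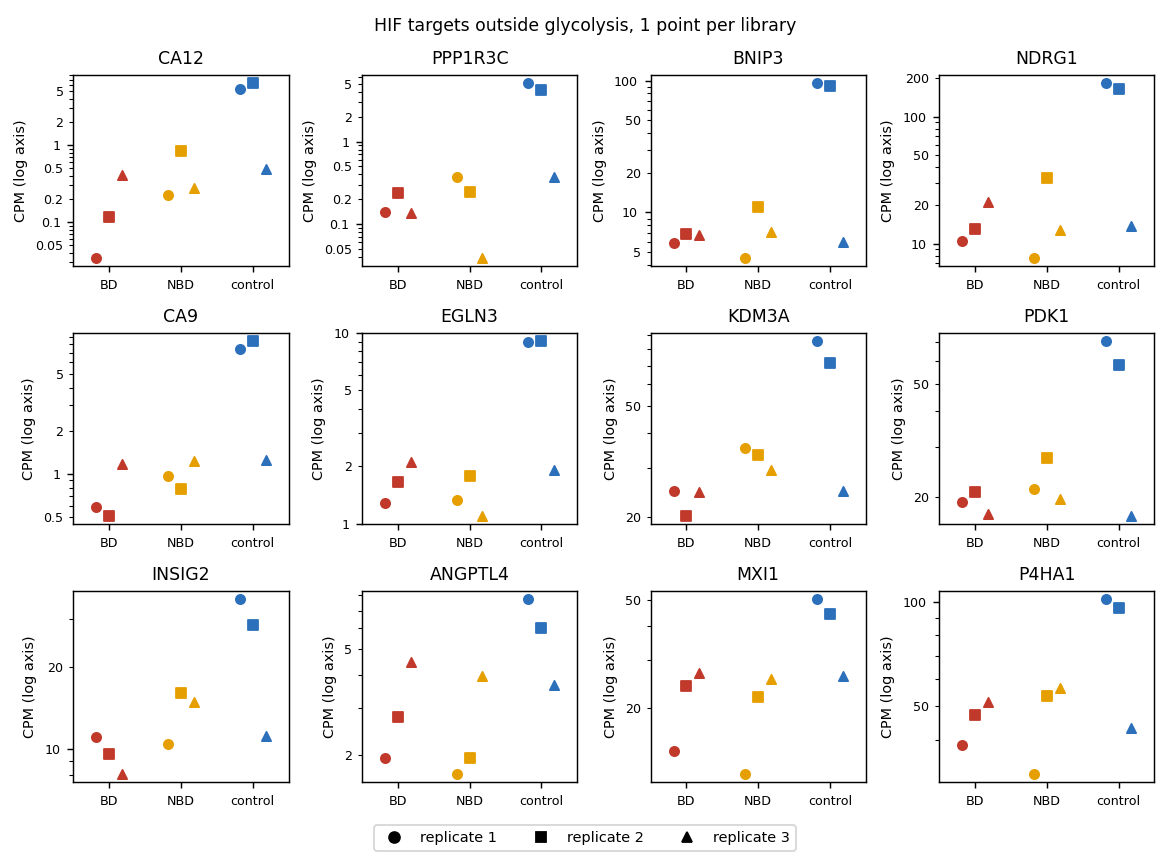
The 12 HIF targets outside glycolysis with the largest called fold changes, all called in the fit without control replicate 3. Values are CPM on log axes, 1 point per library, by group (BD red, NBD orange, control blue) and replicate (circle 1, square 2, triangle 3). In each panel control replicates 1 and 2 lie above all other points and control replicate 3 lies near or among the BD and NBD points, as for BNIP3 at 95.4, 91.3 and 5.99 CPM.

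By count, 0 of the 44 members were called with all 9 libraries and the filter on low counts in any comparison by edgeR, where 0.0177% of all genes were called for BD against NBD and 0.00% for each comparison with control. At an unadjusted p under 0.05, 21 members passed for BD against control, 5 higher and 16 lower (all genes 13.8%), and 23 for NBD against control, all lower (all genes 9.13%). DESeq2 on the same 9 libraries called 9 members lower in BD against control (CA9, CA12, BNIP3, EGLN3, KDM3A, INSIG2, PPP1R3C, HK2 and ENO2; all genes 0.987%, 0.0650% higher and 0.922% lower) and 3 lower in NBD against control (CA9, EGLN3 and PPP1R3C; all genes 0.177%, 0.0709% higher and 0.106% lower). With no filter on low counts, edgeR called 16 members for BD against control, 1 higher and 15 lower (all genes 2.95%, 1.09% higher and 1.86% lower), 15 for NBD against control, all lower (1.51%, 0.712% higher and 0.798% lower), and 0 for BD against NBD (0.333%, 0.0127% higher and 0.320% lower). The shares without the filter are over 39344 genes, of which the filter kept 16921, whereas it kept all 44 members. Every BD library lay above all 3 control libraries for 3 members and below them for 9 (all genes 8.05% and 7.72%). Every NBD library lay above them for 0 and below for 7 (4.67% and 3.75%). CA12, PPP1R3C and SLC2A3 passed the 9-library filter only with control libraries. Their part in every count here made with the filter is a description.

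Without control replicate 3 the comparison rests on 2 control libraries and edgeR called 26 members for BD, 5 higher and 21 lower, where 13.8% of all genes were called higher and 10.5% lower. For NBD it called 24, of which 1 was higher and 23 lower, where 11.6% of all genes were called higher and 6.56% lower. Among those called, PPP1R3C and SLC2A3 passed the filter on low counts only with control libraries, and without them 24 of 42 members were called for BD and 22 of 42 for NBD. Both comparisons use the same control libraries. Among HIF targets outside glycolysis, 2 were called higher and 13 lower in BD, and 12 lower in NBD; adjusted p of those called ran from 3.31e-05 to 0.0495 for BD and from 4.86e-05 to 0.0463 for NBD. The median log2 fold change of the 23 was -1.10 in BD and -1.04 in NBD, against -0.81 and -0.82 with all 9 libraries, where the median of all genes was 0.03 and 0.04. When control replicate 3 was the sole control library, with the spread taken from BD and NBD, 0 members were called (all genes 0.00%), every adjusted p against control was 1.00, and the medians were -0.07 and -0.18.

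**Figure D3:**
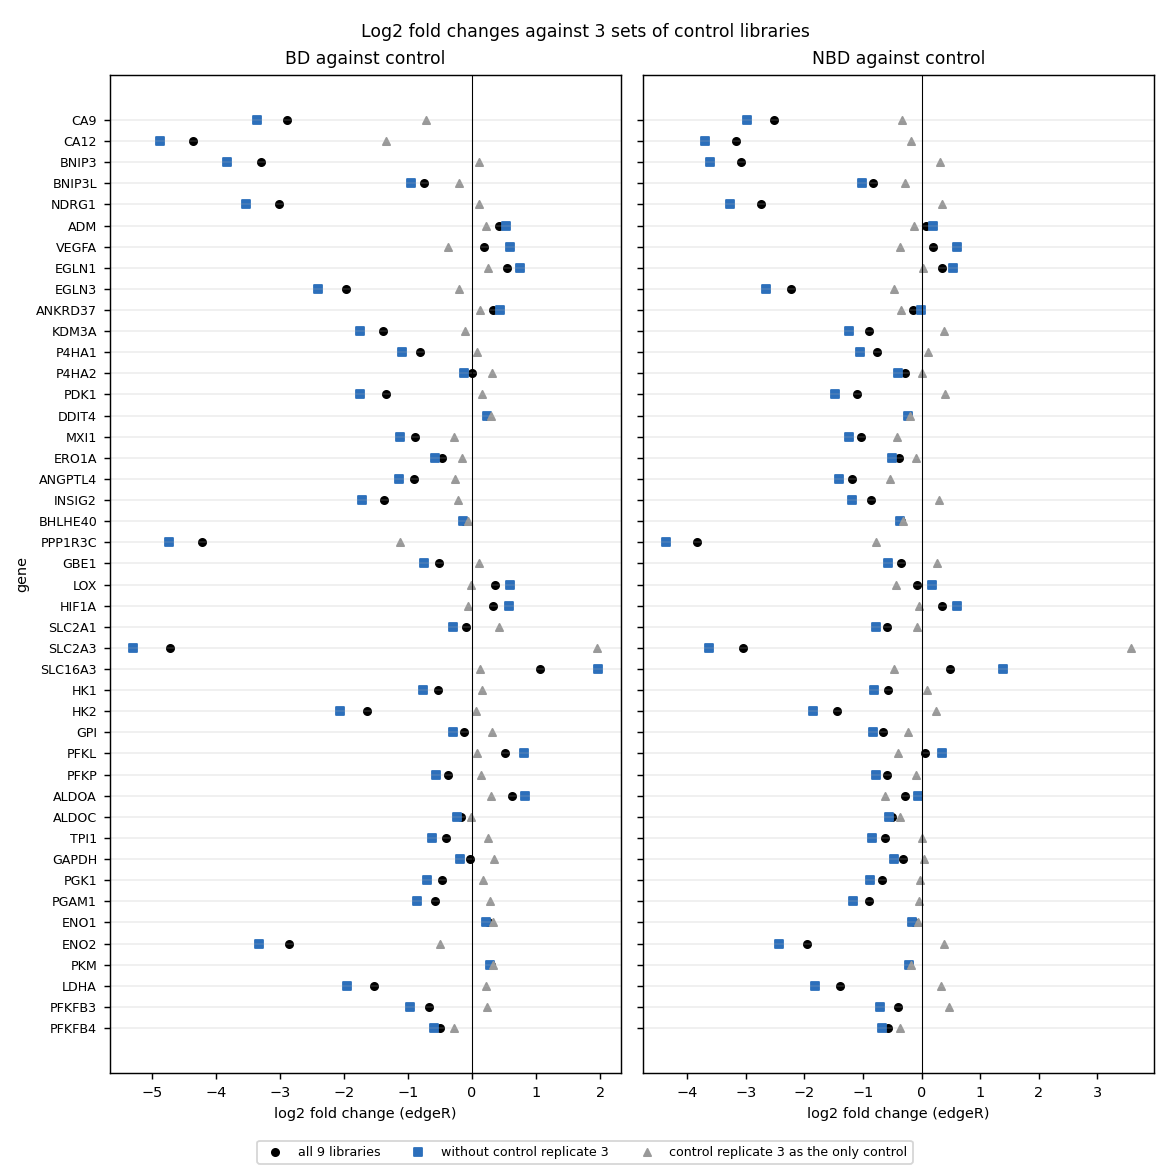
Log2 fold changes of the 44 members (rows, HIF targets at the top, then HIF1A, transporters, enzymes and PFKFB genes) for BD against control (left) and NBD against control (right) under 3 sets of control libraries: all 9 libraries (black circles), without control replicate 3 (blue squares) and control replicate 3 as the only control (grey triangles). Grey points lie near 0 for most genes and blue points reach -5.30 for SLC2A3 in BD; the grey SLC2A3 points rest on 1 read in control replicate 3.

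Glycolysis began with glucose uptake. SLC2A1 (GLUT1), the widespread basal transporter, stood at 85.8, 73.7 and 62.6 CPM in BD, 64.9, 54.2 and 39.7 CPM in NBD, and 83.4, 99.9 and 54.9 CPM in control, with overlapping groups. SLC2A3 (GLUT3), a high-affinity transporter, stood at 0.139, 0.275 and 0.0689 CPM in BD, 0.111, 1.32 and 0.118 CPM in NBD, and 7.05, 5.83 and 0.0377 CPM in control, which is 4, 7 and 2 reads in BD, 3, 32 and 3 in NBD, and 138, 104 and 1 in control. Only control replicates 1 and 2 and, far below them, NBD replicate 2 held SLC2A3 in number. Different genes are set side by side per kilobase of exon, with all annotated exons of a gene merged into 1 length. The transcripts made may be shorter, so ratios between genes are approximate. Per kilobase, SLC2A1 exceeded SLC2A3 by 15.4 and 22.3 times in control replicates 1 and 2 and by 53.4 to 1901 times in the other 7. SLC2A3 was called lower without control replicate 3, at -5.30 ± 0.90 in BD and -3.64 ± 0.80 in NBD. It passed the filter on low counts only with control libraries, so a gene with its levels had to differ to be tested at all. The values of SLC2A3 are therefore a description. SLC2A1 was called lower in NBD at -0.78 ± 0.22 and not in BD at -0.30 ± 0.23.

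Hexokinase, which traps glucose as its phosphate, came in 2 forms. HK1, the constitutive form, stood at 40.01, 45.6 and 45.4 CPM in BD, 34.2, 59.9 and 32.5 CPM in NBD, and 68.2, 81.5 and 39.1 CPM in control. HK2, the inducible form, stood at 23.5, 21.7 and 19.9 CPM in BD, 24.2, 33.3 and 17.3 CPM in NBD, and 92.9, 89.7 and 20.8 CPM in control. Per kilobase, the ratio of HK2 to HK1 was 0.6101, 0.493 and 0.455 in BD, 0.737, 0.577 and 0.552 in NBD, and 1.42, 1.14 and 0.553 in control. On this scale HK2 was the more abundant form in control replicates 1 and 2 and the lesser in the other 7 libraries. That order rests on the merged exon lengths used, 6064 bases for HK2 and 6296 for HK1. Both were called lower without control replicate 3, HK2 at -2.06 ± 0.24 in BD and -1.86 ± 0.24 in NBD, and HK1 at -0.77 ± 0.25 and -0.81 ± 0.25. GPI, the next enzyme, which isomerizes glucose 6-phosphate, stood at 313, 354 and 295 CPM in BD, 243, 228 and 194 CPM in NBD, and 380.3, 415 and 259 CPM in control and was called lower in NBD at -0.83 ± 0.18 and not in BD at -0.30 ± 0.19.

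At the phosphofructokinase step, the committed step of the pathway, isozymes differed in direction. PFKL, the liver-type subunit, stood at 108, 121 and 109 CPM in BD, 89.9, 79.4 and 75.2 CPM in NBD, and 56.5, 72.3 and 107 CPM in control. PFKP, the platelet-type subunit, stood at 133, 162 and 137 CPM in BD, 111, 154 and 107 CPM in NBD, and 201, 227 and 131 CPM in control. Control replicates 1 and 2 were lowest for PFKL and highest for PFKP, and per kilobase PFKP exceeded PFKL 6.56 and 5.803 times there and 2.26 to 3.57 times in the other 7. Leaving out control replicate 3, PFKL was called higher in BD at 0.82 ± 0.18 and not in NBD at 0.36 ± 0.18, and PFKP lower in NBD at -0.77 ± 0.20 and not in BD at -0.56 ± 0.20. PFKFB3 and PFKFB4 make fructose 2,6-bisphosphate, the activator of this step. PFKFB3 stood at 32.9, 24.5 and 22.9 CPM in BD, 31.3, 48.7 and 16.1 CPM in NBD, and 49.1, 55.95 and 22.7 CPM in control, with NBD replicate 2 nearly level with the controls, and PFKFB4 ranged from 4.34 to 8.91 CPM. Neither was called in any fit.

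Aldolase, which splits the sugar, was represented by ALDOA and ALDOC. ALDOA (chromosome 16, 30064164 to 30070457) stood at 28.8, 42.99 and 36.2 CPM in BD, 19.04, 18.7 and 19.98 CPM in NBD, and 16.9, 23.9 and 29.4 CPM in control, and ALDOC at 9.59, 18.1 and 16.8 CPM in BD, 7.56, 12.6 and 15.1 CPM in NBD, and 17.8, 17.3 and 15.03 CPM in control. ALDOA is the main aldolase of most cells, yet per kilobase it was at 4.32 to 10.98 CPM where GAPDH was at 684 to 1489 CPM. It shares same-strand exons with AC093512.2 in GENCODE 29, so its count is uncertain, and no source used here says how shared reads were counted. ALDOA was called higher in BD without control replicate 3, at 0.83 ± 0.23, against -0.07 ± 0.22 in NBD. ALDOC was not called.

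In the later steps, TPI1, PGK1 and PGAM1 followed the split among controls and GAPDH, ENO1 and PKM did not. TPI1, triose-phosphate isomerase, stood at 587, 678 and 539.97 CPM in BD, 454, 532 and 556 CPM in NBD, and 858, 1019 and 506 CPM in control. GAPDH, which makes NADH, ranged from 2039 to 4438 CPM and ENO1, the common enolase, from 1516 to 2564 CPM, with BD, NBD and control ranges that overlap for GAPDH. PGK1, the first ATP-forming enzyme, stood at 585, 780.2 and 616 CPM in BD, 453, 592 and 683 CPM in NBD, and 1047, 1112 and 584 CPM in control. PGAM1, phosphoglycerate mutase, stood at 111, 108 and 102 CPM in BD, 76.05, 91.8 and 90.6 CPM in NBD, and 189.5, 202 and 87.7 CPM in control. For TPI1, PGK1 and PGAM1, control replicates 1 and 2 lay above the other libraries by 1.27, 1.34 and 1.71 times at the narrowest, and for ENO1 and PKM they lay among them. Of GAPDH, control replicate 2 had the highest level of all 9 libraries and control replicate 1 lay among the others. Without control replicate 3 the log2 fold changes were -0.63 ± 0.20 and -0.85 ± 0.20 for TPI1, -0.70 ± 0.23 and -0.89 ± 0.23 for PGK1 and -0.87 ± 0.17 and -1.17 ± 0.17 for PGAM1, in BD and in NBD, all called lower. GAPDH has 62 named pseudogenes and PGAM1 13, and PGK1 shares exons with ATP7A, so these counts are uncertain.

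Isozyme ratios of enolase and lactate dehydrogenase also differed among the libraries. ENO2, the neuronal enolase that hypoxia induces, stood at 0.903, 0.432 and 0.586 CPM in BD, 1.0002, 1.49 and 1.101 CPM in NBD, and 6.54, 6.62 and 0.904 CPM in control, and ENO1 was the dominant form everywhere. Per kilobase ENO1 exceeded ENO2 1979 to 4818 times in BD, 921 to 1461 times in NBD, and 223, 259 and 1605 times in control. LDHA, which turns pyruvate to lactate, stood at 559, 604 and 497 CPM in BD, 444, 725 and 649.6 CPM in NBD, and 2128, 2182 and 477 CPM in control. Control replicates 1 and 2 held about 2.94 times the LDHA of the highest other library, and control replicate 3 lay within the range of the sorted libraries. LDHA exceeded LDHB, the form that favours the reverse reaction and a gene outside the 44, 11.1 and 11.3 times per kilobase in those libraries and 4.51 to 7.33 times in the other 7. ENO2 was called lower without control replicate 3, at -3.34 ± 0.38 in BD and -2.44 ± 0.37 in NBD, and LDHA at -1.95 ± 0.24 and -1.81 ± 0.24 (edgeR, adjusted p = 4.05e-04 and 7.70e-04 for LDHA, up to 1.00 over the alternatives).

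Of the lactate transporters, SLC16A3 was low where LDHA was high, and the more abundant SLC16A1 was not. SLC16A3 (MCT4), the low-affinity lactate exporter of glycolytic cells and a known HIF target, stood at 31.02, 51.2 and 47.2 CPM in BD, 25.8, 25.5 and 35.1 CPM in NBD, and 9.61, 12.7 and 39.5 CPM in control. It was lowest in control replicates 1 and 2, by at least 2.01-fold. It was called higher without control replicate 3, at 1.96 ± 0.28 in BD and 1.39 ± 0.27 in NBD, and was the only member called higher in NBD in that fit. SLC16A1 (MCT1), the widespread monocarboxylate transporter, was at 51.9 and 53.5 CPM per kilobase in control replicates 1 and 2 and at 29.8 to 52.5 CPM per kilobase in the other 7. It exceeded SLC16A3 per kilobase 48.6 and 37.99 times in control replicates 1 and 2 and 8.13 to 16.6 times elsewhere. SLC16A3 overlaps the antisense gene CSNK1D, and no source used here gives the strand setting of the counting.

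**Figure D4:**
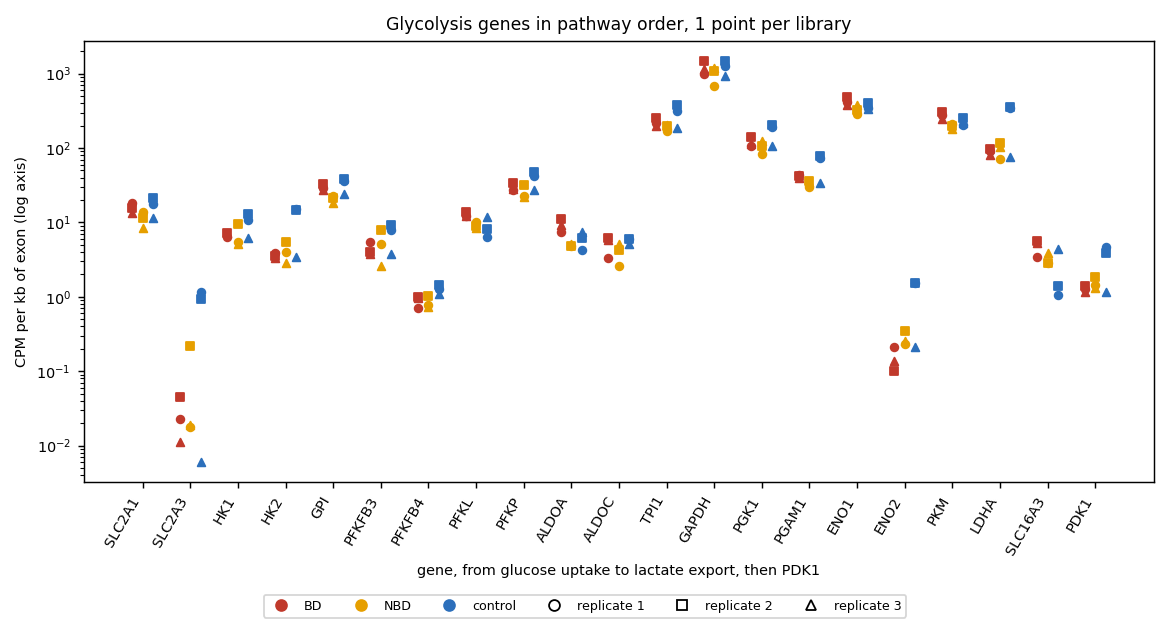
CPM per kilobase of exon (log axis) of 20 glycolysis genes in pathway order from glucose uptake to lactate export, then PDK1; 1 point per library, BD red, NBD orange and control blue, with circle, square and triangle for replicates 1, 2 and 3. The blue circle and square stand above the other points at SLC2A3, HK2, ENO2, LDHA and PDK1 and below them at SLC16A3.

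Of all 20 glycolysis genes, control replicates 1 and 2 lay above every other library for 12 (all genes 18.9%). They lay below for 2, PFKL and SLC16A3 (all genes 21.6%). The gap was at least 2-fold for 4 of the 12 (SLC2A3, HK2, ENO2 and LDHA) and under 1.5-fold for 7. Among HIF targets it was at least 2-fold for 8 of 16 and under 1.5-fold for 5. The size of the gap was not taken over all genes, so these counts have no background. SLC2A3, CA12 and PPP1R3C, which are among them, passed the 9-library filter only with control libraries. Without control replicate 3, edgeR called 3 of the 20 higher and 8 lower in BD and 1 higher and 11 lower in NBD, where 13.8% and 10.5% of all genes were called higher and lower in BD and 11.6% and 6.56% in NBD. Leaving out SLC2A3, which passed the filter only with control libraries, 3 of 19 were called higher and 7 lower in BD. In NBD 1 of 19 was called higher and 10 lower. The median log2 fold changes of the 20 in the same fit were -0.58 in BD and -0.77 in NBD. With all 9 libraries the medians were -0.39 and -0.58, and with control replicate 3 as the only control 0.22 and -0.05. The sign of the BD median thus turned with the control library. The difference between the 2 kinds of gene was not tested.

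Between BD and NBD no member was called. That holds for edgeR with all libraries, without control replicate 3 (all genes 0.0901%, all lower) and with control replicate 3 as the sole control (0.0478%, all lower), and for DESeq2 (0.343%, of which 0.0532% higher and 0.290% lower). The 23 HIF targets had a median log2 fold change of -0.02, equal to that of all genes, with 11 above 0 and 12 below; without CA12 and PPP1R3C the median was 0.08. Of 15 glycolysis enzymes 12 were above 0 (all genes 48.4%), at a median of 0.28, and all 20 glycolysis genes had a median of 0.26. In 6 enzymes every BD library lay above every NBD library, GPI, PFKL, ALDOA, PGAM1, ENO1 and PKM, and in ENO2 alone every BD library lay below. Over all genes tested 7.19% lay wholly above and 7.36% wholly below.

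ALDOA had the largest difference among the enzymes, at 28.8, 42.99 and 36.2 CPM in BD and 19.04, 18.7 and 19.98 CPM in NBD, and the log2 fold change was 0.91 ± 0.23 (edgeR, adjusted p = 0.643, from 0.0798 to 1.00 over the alternatives). GPI was at 313, 354 and 295 CPM in BD and 243, 228 and 194 CPM in NBD, at 0.54 ± 0.21. PKM, pyruvate kinase, the last ATP-forming enzyme, was at 2382, 2614 and 2133 CPM in BD and 1780.5, 1720.3 and 1547 CPM in NBD, at 0.50 ± 0.21. These 3 were the members with an unadjusted p under 0.05, where 5.86% of all genes passed, and none passed the adjusted threshold under any alternative. ENO1 was at 2203, 2564 and 2000.3 CPM in BD and 1516, 1691 and 1983 CPM in NBD, with BD replicate 3 just above NBD replicate 3. NBD replicate 1 was the lowest of the 6 sorted libraries for 20 of 44 members (45.5%), against 26.8% of all genes tested.

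Outside the enzymes, ADM, at 28.6, 31.2 and 36.2 CPM in BD and 24.5, 24.9 and 26.2 CPM in NBD, and P4HA2, at 43.7, 45.3 and 46.7 CPM in BD and 36.3, 37.4 and 37.8 CPM in NBD, also lay higher in every BD library. KDM3A lay lower in every BD library, at 24.8, 20.3 and 24.6 CPM in BD and 35.3, 33.5 and 29.4 CPM in NBD. The log2 fold changes were 0.34 ± 0.17, 0.28 ± 0.17 and -0.49 ± 0.36, with edgeR adjusted p of 0.814 or more for each. Thus 2 of 23 HIF targets lay wholly above and 1 wholly below, where the shares of all genes tested were 7.19% and 7.36%. CA12, PPP1R3C and SLC2A3, with few reads in the sorted libraries, had the widest errors, at -1.18 ± 1.04, -0.37 ± 1.00 and -1.66 ± 1.44.

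**Figure D5:**
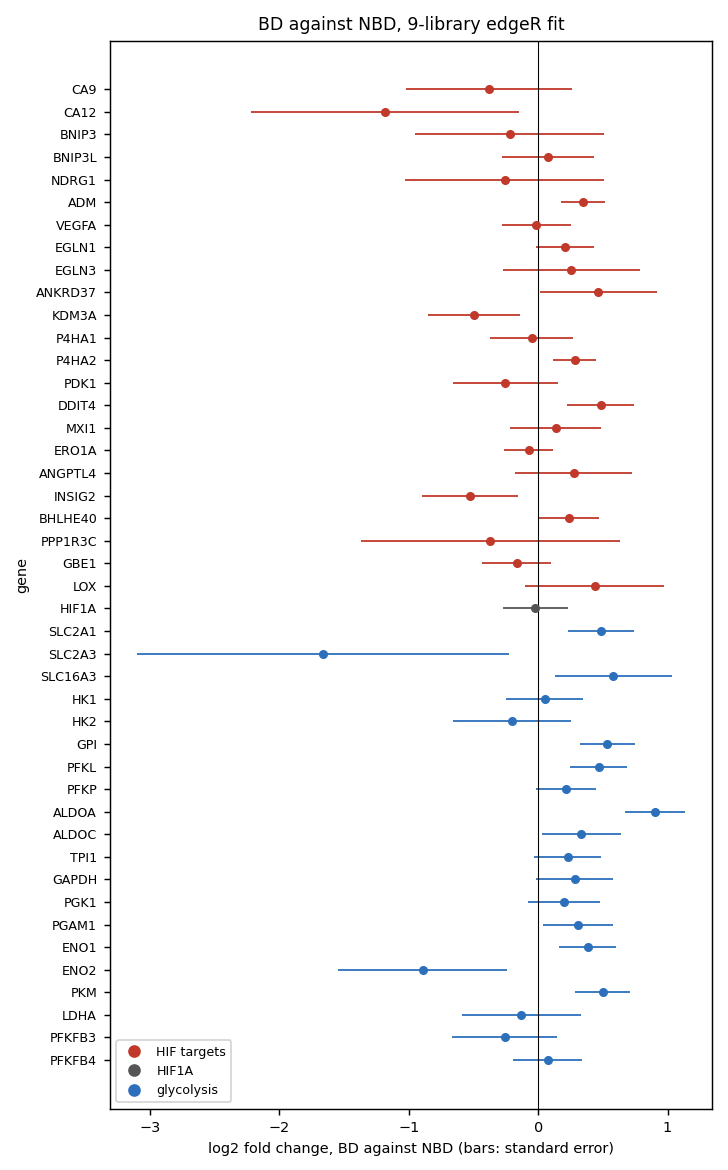
Log2 fold changes for BD against NBD of the 44 members from the fit to all 9 libraries (points, HIF targets red, HIF1A grey, glycolysis blue), with bars for 1 standard error. HIF targets scatter around 0, while 12 of 15 glycolysis enzymes lie above 0 (all genes 48.4%), from HK1 at 0.05 to ALDOA at 0.91. No member was called.

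NBD replicate 2 stood out among the sorted libraries for the genes that were high in control replicates 1 and 2. It was the highest of the 6 sorted libraries for 12 of 28 such members (42.9%), against 35.3% of the 3190 such genes over the whole table and 16.3% of all genes. SLC2A3 was at 1.32 CPM there and at most 0.275 CPM in the other 5 sorted libraries. NDRG1, at 32.9 CPM, BNIP3, at 11.05 CPM, and HK2, at 33.3 CPM, were also highest there, each between the other sorted libraries and control replicates 1 and 2.

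Further genes of the same pathways were taken as whole lists. In the fit without control replicate 3, to which their counts refer, 24.3% of all genes were called for BD (13.8% higher and 10.5% lower) and 18.2% for NBD (11.6% higher and 6.56% lower). Of 10 tested genes of HIF subunits and oxygen-dependent control (HIF3A had 0 counts), 0 were called with all libraries, and without control replicate 3 edgeR called 2 lower in BD and 2 lower in NBD. These were HIF1AN, the asparaginyl hydroxylase that inhibits HIF, at 44.2, 33.6 and 42.01 CPM in BD, 46.9, 56.6 and 36.8 CPM in NBD, and 87.7, 91.7 and 39.9 CPM in control, and ELOC, a subunit of the VHL complex, at 35.4, 48.7 and 34.2 CPM in BD, 27.9, 45.6 and 46.1 CPM in NBD, and 69.5, 74.7 and 34.3 CPM in control. ARNT ranged from 36.2 to 54.4 CPM, EPAS1, another alpha subunit, from 14.6 to 28.4 CPM and VHL from 22.5 to 35.5 CPM, and none of them was called.

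A further 26 HIF targets did not share 1 direction. Without control replicate 3, 5 were called higher and 7 lower in BD, and 5 higher and 4 lower in NBD. IGFBP3, a secreted binder of insulin-like growth factors, stood at 1679.8, 2486 and 2402 CPM in BD, 1670.2, 1567 and 2397 CPM in NBD, and 46.6, 48.05 and 2436 CPM in control. PLIN2, a lipid droplet coat protein, stood at 42.2, 30.4 and 35.1 CPM in BD, 28.97, 25.3 and 40.5 CPM in NBD, and 8.69, 7.57 and 31.3 CPM in control, and PLOD2, a collagen lysyl hydroxylase, at 47.6, 82.6 and 72.7 CPM in BD, 43.4, 61.3 and 84.7 CPM in NBD, and 20.2, 15.6 and 66.9 CPM in control. These 3 were lowest in control replicates 1 and 2. FUT11, a fucosyltransferase, stood at 4.897, 5.38 and 6.204 CPM in BD, 4.22, 5.09 and 5.27 CPM in NBD, and 13.5, 14.4 and 5.27 CPM in control, and PPFIA4 and VLDLR, the receptor of very low density lipoprotein, were likewise highest in control replicates 1 and 2. With all libraries 0 of the 26 were called, and their median log2 fold change was -0.34 in BD and -0.32 in NBD.

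Around pyruvate the kinases of pyruvate dehydrogenase differed. PDK3 stood at 9.24, 8.21 and 9.17 CPM in BD, 8.001, 16.5 and 11.1 CPM in NBD, and 35.3, 29.9 and 9.79 CPM in control, the same pattern as PDK1, and DESeq2 called it lower in BD with all libraries. PDK4 stood at 3.33, 3.14 and 4.51 CPM in BD, 3.11, 3.14 and 5.23 CPM in NBD, and 0, 0 and 4.48 CPM in control; 3 reads in control replicates 1 and 2 would be 0.153 and 0.168 CPM. PDK1 and PDK3 were thus highest in the libraries in which PDK4 had no read. MPC1 and MPC2, the mitochondrial pyruvate carrier, were both called higher in BD without control replicate 3, at 1.03 ± 0.24 and 1.00 ± 0.27. MDH2 and DLD, a dehydrogenase of the tricarboxylic acid cycle and a subunit of pyruvate dehydrogenase, were lower in BD, at -0.60 ± 0.18 and -0.74 ± 0.18. Of the 27 genes of pyruvate entry and the cycle, 7 were called higher and 3 lower in BD in that fit, and 4 higher and 3 lower in NBD.

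Of 13 tested further genes of glycolysis and lactate, 2 were called higher and 2 lower in BD without control replicate 3, and 1 higher and 2 lower in NBD. PGM1, which links glycogen to glycolysis, was higher at 1.36 ± 0.18 in BD and 0.86 ± 0.18 in NBD, and BSG, the chaperone of lactate transporters, at 0.79 ± 0.21 in BD. LDHB was lower at -0.89 ± 0.23 in BD and -0.90 ± 0.23 in NBD, and PFKM, the muscle-type phosphofructokinase, at -0.82 ± 0.17 and -0.75 ± 0.17. Of 13 genes of the pentose phosphate path and glycogen, 2 were called higher (PGLS and PGD) and 2 lower (RPIA and PYGL) in BD, and 1 higher and 1 lower in NBD. With all libraries and the filter on low counts, 0 genes of these lists were called by edgeR in any comparison.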

How the data were processed

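The authors deposited raw read counts per gene, 1 table per library, with no normalization. Reads were handled with FastQC 0.74, Trimmomatic 0.39, STAR 2.7.11b and featureCounts on GRCh38, per the submitters' processing notes; per the labels' protocols, libraries were stranded and rRNA-depleted, and 2 RNA kits were used. No source used here gives the annotation release, the strand setting or the treatment of multi-mapped reads, so overlapping genes and genes with pseudogenes have uncertain counts. All 44 symbols matched through a gene name table that covers 61458 of 78899 IDs, and coordinates, exon lengths and overlaps are from GENCODE 29.

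Groups were taken from the sample titles. Depth was 17128797 to 29512856 counts, where 3 counts are 0.103 to 0.168 CPM, which covers counting error only. Replicates of a group differed beyond sampling noise and were all kept. The test was edgeR 4.0.16 in R 4.3.3 (filterByExpr, TMM, quasi-likelihood, 9 libraries, a term per group, 6 residual degrees of freedom, two-sided, Benjamini-Hochberg over 16921 genes, adjusted p under 0.05). It was also run on simulated counts in which all libraries of a group shared the same mean. That run lacks the split among controls, so it cannot show how the test behaves under it. Standard errors are the fold change over the square root of F. Alternatives, 14 in all, were other size factors, no filter, DESeq2 1.42.0, a block for the replicate number, control replicate 3 as the sole control, and each library left out. Plots were drawn with matplotlib 3.10.9.

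Every member may be named; full values went to members called with all libraries or with 1 left out, at most 12 per list, and of the other lists to at most 3 genes per direction. The members and lists were chosen with earlier results of these data known.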

Additional observations from a re-analysis of the deposited data

How the results depend on the processing

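With all 9 libraries edgeR called 3 genes for BD against NBD and 0 for either group against control, and 0 members throughout. With no filter on low counts and with DESeq2, the counts were 131 and 58 genes for BD against NBD, 1162 and 167 for BD against control, and 594 and 30 for NBD against control. With no filter 39344 genes were tested, of which 2.95% were called for BD and 1.51% for NBD against control; of the 44 members 16 and 15 were called there, and 9 and 3 with DESeq2 (0.987% and 0.177% of 16921 genes). For BD against NBD, control replicate 3 as the only control gave 9 genes. Leaving out 1 library gave 0 to 16 genes for BD against NBD, 0 to 4317 genes and 0 to 26 members for BD against control, and 0 to 3228 genes and 0 to 24 members for NBD against control. The highest count of each came without control replicate 3, and without any other library no member was called. No member was called for BD against NBD under any of the 14 alternatives. Over the members' log2 fold changes and alternatives, 1667 values kept their sign and their side of the threshold, 93 gained a call and 88 changed sign while uncalled. The cause of these changes was not tested. Members with few reads outside control replicates 1 and 2, SLC2A3, PPP1R3C and CA12, are limited by depth. They passed the 9-library filter only with control libraries.

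The groups share replicate numbers, but the labels do not say that a number marks a shared culture or day. Same-numbered libraries deviated together at r = 0.657, 0.0838 and 0.367 across genes for BD and NBD, 0.263, 0.0509 and 0.288 for BD and control, and 0.00252, 0.492 and 0.355 for NBD and control. Different-numbered libraries stood at r = -0.627 to 0.4805 for BD and NBD, -0.265 to 0.141 for BD and control, and -0.5255 to 0.4375 for NBD and control. Since the labels name no pairing, the numbers were not taken as pairs, and whether they mark pairs was not tested. Under a replicate block edgeR called 0 genes in each comparison. At an unadjusted p under 0.05, 1450 genes passed for BD against NBD with the block and 991 without it.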
